A study of Sus scrofa with 6 samples.

Results

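The transcripts of 10 glycolytic enzymes of skeletal muscle were compared between adipocyte-specific UCP1 KI pigs and WT pigs. RNA-seq was performed on the longissimus dorsi, a long muscle of the back, of 3 UCP1 KI pigs and 3 WT pigs, all 6 months of age, with 1 library per pig. UCP1 (uncoupling protein 1) is the heat-producing protein of brown fat mitochondria, and its knock-in was directed at adipocytes, whereas the tissue measured here was muscle. The sex and the litters of the pigs are not given in the sources used here. No identifier of the count table carried the symbol *UCP1*, and the paper reports no *UCP1* mRNA in the muscle of either genotype. The genotype could therefore not be checked against its transcript.

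The enzymes were chosen by name, as members of the pathway, with earlier results of these data known. They were *GPI*, *PFKM*, *ALDOA*, *TPI1*, *GAPDH*, *PGK1*, *PGAM2*, *ENO3*, *PKM* and *LDHA*, each found under 1 Ensembl pig identifier among the 30476 genes of the table. All 10 were among the 13402 genes that passed the filter on low counts. Glycolysis splits glucose into pyruvate in the cytosol and yields ATP without oxygen. Its first steps spend ATP to make a phosphorylated hexose and cleave it, and its later steps return more ATP than was spent. Fast-twitch fibres, which make up much of the longissimus dorsi of the pig, rely on this route and turn pyruvate into lactate during short bursts of work.

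Several steps have isoenzymes encoded by separate genes, and *PFKM*, *ALDOA*, *PGAM2* and *ENO3* encode the muscle forms. On the assembly Sscrofa11.1, to which the submitters' processing notes refer, the RefSeq annotation places *GPI* at chr6:44038374-44069331, *PFKM* at chr5:78475473-78525052, *ALDOA* at chr3:18246036-18260167, *TPI1* at chr5:63839473-63842853 and *GAPDH* at chr5:64129678-64135194. *PGK1* lies at chrX:62187472-62210321, *PGAM2* at chr18:48693832-48712787, *ENO3* at chr12:51954614-51959991, *PKM* at chr7:60971807-61032780 and *LDHA* at chr2:40814163-40827284. The spans of *GPI*, *PFKM*, *ALDOA*, *GAPDH* and *PGAM2* overlap another annotated gene, and the strand setting of the counting is not given. Of these neighbors, *SENP1* at *PFKM*, *IFFO1* at *GAPDH* and *VOPP1* at *PGAM2* had at most 3.42, 12.6 and 13.2 CPM (counts per 1e+06 counts) in any pig. The levels of LOC110260082, the protein-coding neighbor of *ALDOA*, and of the noncoding neighbors of *GPI*, *GAPDH* and *PGAM2* were not examined. *GAPDH* also has many processed copies in mammalian genomes, and how reads shared with such copies were counted is not given.

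The counts of the 6 libraries summed to between 30220951 and 35066624. Muscle identity was clear, with *ACTA1*, the actin of skeletal muscle fibres, between 30309 and 55971 CPM, where CPM were scaled with TMM factors, which were lowest for WT replicate 2 (0.781) and highest for UCP1 KI replicate 2 (1.18). Scaling by library size only moved the median of all genes tested from -0.02 to 0.24 on the log2 scale. Of all genes tested, 8.19% passed an unadjusted p under 0.05 with an absolute log2 fold change above 0.5 in edgeR's quasi-likelihood test, the limits used here for a call. Of these genes 0 (0%) had an adjusted p under 0.05 with Benjamini-Hochberg adjustment, whereas 1100 had an unadjusted p under 0.05, and DESeq2 gave 127 genes with an adjusted p under 0.05 on the same genes. No source names the pigs as littermates or as a batch, and p-values measure the spread between these 6 pigs.

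The mean level of each of the 10 enzymes was lower in the UCP1 KI group than in the WT group, but 0 of the 10 passed the limits for a call, against 8.19% of all genes tested. The groups overlapped for all 10 enzymes, whereas 15.3% of all genes tested did not overlap. The median log2 fold change of the enzymes was -0.61, beside -0.02 over all genes tested, of which 51.3% had a negative value. Their adjusted p-values from edgeR lay between 0.710 and 0.925. In bulk muscle, fewer cells of a type and less RNA per cell cannot be told apart.

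**Figure D1:**
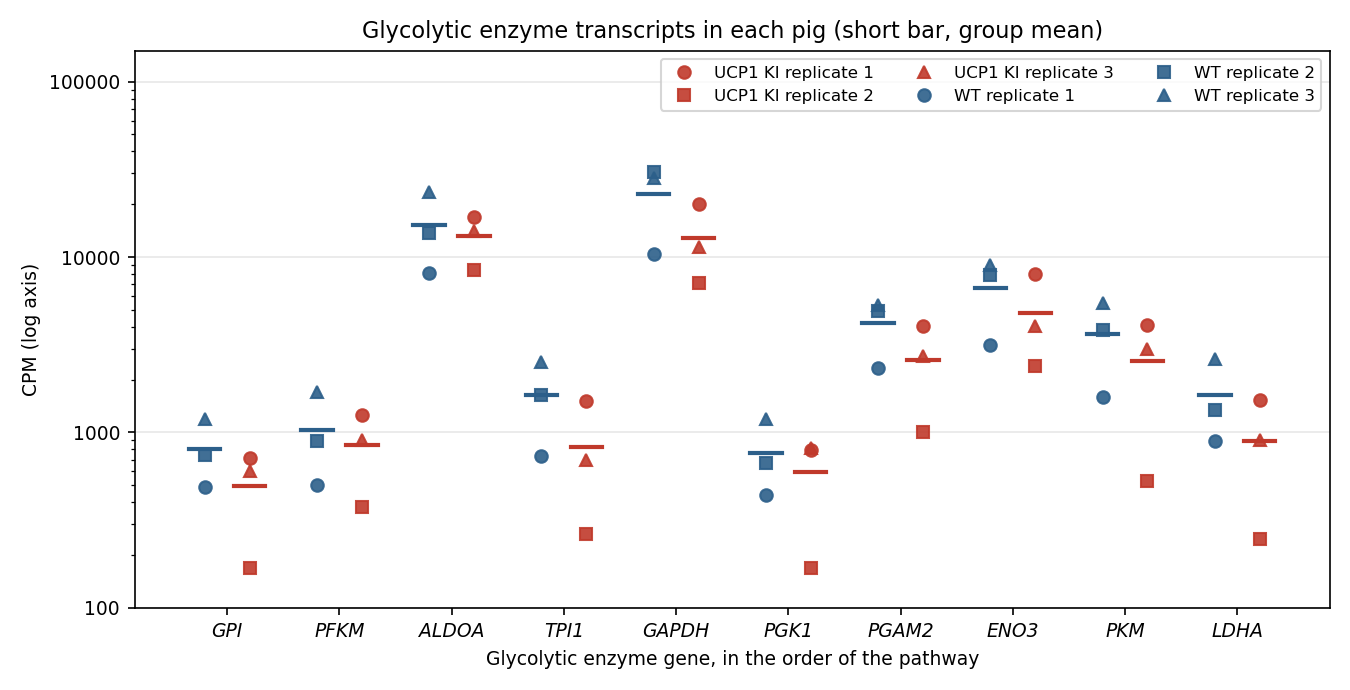
CPM (log axis) of the 10 enzymes in each pig, in the order of the pathway, with blue for WT and red for UCP1 KI, a symbol for each replicate and a short bar for the group mean. UCP1 KI replicate 2 (red square) was the lowest pig for 9 of the enzymes, and WT replicate 3 (blue triangle) the highest for 9.

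Together the 10 genes took 5.57%, 2.44% and 4.58% of all counts in UCP1 KI replicates 1 to 3, and 3.06%, 5.16% and 7.41% in WT replicates 1 to 3. The 95% Wilson intervals of these shares, which cover counting error only, were at most 0.0180 percentage points wide. The UCP1 KI mean was 4.20% ± 1.60 (SD, n = 3), and the WT mean was 5.21% ± 2.18 (SD, n = 3). The lowest and the highest pig thus differed far more than the group means, and each genotype held both a low and a high pig.

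The preparatory steps begin with *GPI* (ENSSSCG00000002873), glucose-6-phosphate isomerase, which converts glucose 6-phosphate to fructose 6-phosphate. Its transcript was at 713, 169 and 605 CPM in UCP1 KI replicates 1 to 3, and at 491, 746 and 1192 CPM in WT replicates 1 to 3. UCP1 KI replicate 2 stood below all other pigs, and UCP1 KI replicates 1 and 3 lay within the WT range. The fitted log2 difference was -0.71 (standard error 0.56), with a 95% interval from -2.02 to 0.60 and an adjusted p of 0.753 from edgeR. This difference lay between -1.06 and -0.30 when pigs were omitted 1 at a time.

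*PFKM* (ENSSSCG00000021129) encodes the muscle form of phosphofructokinase, which commits the hexose to glycolysis. It was measured at 1257, 376 and 904 CPM in UCP1 KI pigs against 503, 899 and 1693 CPM in WT pigs. The ranges overlapped over most of their length, and the log2 fold change was -0.29 (standard error 0.56). This value turned to 0.07 without UCP1 KI replicate 2 and to 0.27 without WT replicate 3.

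*ALDOA* (ENSSSCG00000032556), the aldolase that cleaves fructose 1,6-bisphosphate into triose phosphates, was at 16906, 8444 and 14097 CPM in UCP1 KI pigs against 8119, 13715 and 23613 CPM in WT pigs. It was the enzyme for which UCP1 KI replicate 2 was not the lowest pig, since WT replicate 1 was lower. Its spread over the 6 pigs was also the smallest of the 10, with a 2.91-fold range. Fitted over all pigs, the log2 difference was -0.20 (standard error 0.53), and it was 0.05 under library size scaling, 0.03 when UCP1 KI replicate 2 was omitted and 0.27 when WT replicate 3 was.

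*TPI1* (ENSSSCG00000000685), triosephosphate isomerase, interconverts the triose phosphates that aldolase releases. It was at 1511, 264 and 698 CPM in UCP1 KI pigs against 735, 1629 and 2532 CPM in WT pigs. UCP1 KI replicates 2 and 3 were below every WT pig, while UCP1 KI replicate 1 was above WT replicate 1. *TPI1* had the largest log2 fold change among the enzymes, -0.99 (standard error 0.68, unadjusted p of 0.185 and adjusted p of 0.710 from edgeR). It passed the limits for a call without UCP1 KI replicate 1, at -1.76 with an unadjusted p of 0.0386 from edgeR, and under no other alternative. The value shrank to -0.55 with UCP1 KI replicate 2 omitted and to -0.52 with WT replicate 3 omitted.

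The later steps begin with *GAPDH* (ENSSSCG00000000694), glyceraldehyde-3-phosphate dehydrogenase, which oxidizes the triose phosphate and makes NADH. Its transcript was at 19979, 7104 and 11446 CPM in UCP1 KI pigs against 10461, 30488 and 28130 CPM in WT pigs. *GAPDH* was the enzyme for which WT replicate 2, and not WT replicate 3, was the highest pig. UCP1 KI and WT differed by -0.84 on the log2 scale (standard error 0.59, adjusted p of 0.718 from edgeR). Omitting 1 pig at a time gave values from -1.31 to -0.55.

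*PGK1* (ENSSSCG00000012440), phosphoglycerate kinase, carries out the first ATP-forming step of the pathway. It was at 794, 168 and 813 CPM in UCP1 KI pigs and at 440.4, 667 and 1186 CPM in WT pigs. UCP1 KI replicates 1 and 3 were above WT replicates 1 and 2, and UCP1 KI replicate 2 was below all pigs. Its log2 difference of -0.37 (standard error 0.62) turned to 0.07 without UCP1 KI replicate 2 and to 0.10 without WT replicate 3.

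*PGAM2* (ENSSSCG00000016720), the muscle phosphoglycerate mutase, moves the phosphate group within phosphoglycerate. It was at 4037, 1002 and 2721 CPM in UCP1 KI pigs against 2339.7, 4915 and 5307 CPM in WT pigs. The fitted difference was -0.70 on the log2 scale (standard error 0.57, adjusted p of 0.758 from edgeR). *ENO3* (ENSSSCG00000017904), the muscle enolase, removes water to form phosphoenolpyruvate. It was at 8014, 2403 and 4021 CPM in UCP1 KI pigs against 3172, 7848 and 9022 CPM in WT pigs, with a fitted log2 difference of -0.47 (standard error 0.58). With 1 pig omitted at a time the differences reached from -1.17 to -0.31 for *PGAM2* and from -1.05 to -0.15 for *ENO3*. For both enzymes UCP1 KI replicate 1 was close to the WT pigs with the higher levels, and UCP1 KI replicate 2 was the lowest pig.

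*PKM* (ENSSSCG00000001930), pyruvate kinase, forms pyruvate and ATP at the end of the pathway, and its splice forms cannot be separated in gene counts. Its transcript was at 4111, 529 and 2979 CPM in UCP1 KI pigs against 1582, 3836 and 5502 CPM in WT pigs. UCP1 KI pigs differed among themselves 7.77-fold, the widest range within a group for any of the enzymes, and WT pigs 3.48-fold. The fitted log2 difference of -0.52 (standard error 0.75) had a 95% interval from -2.25 to 1.21, the widest interval among the enzymes. This difference was -0.04 without UCP1 KI replicate 2, -0.09 without WT replicate 3 and -1.05 without UCP1 KI replicate 1.

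*LDHA* (ENSSSCG00000013366), the lactate dehydrogenase subunit that prevails in fast muscle, reduces pyruvate to lactate and returns NAD+ to the *GAPDH* step. It was at 1533, 246 and 911 CPM in UCP1 KI pigs and at 893, 1349.7 and 2637 CPM in WT pigs. The lowest and the highest pig differed 10.7-fold, the largest range over the 6 pigs among the 10 enzymes. UCP1 KI and WT differed by -0.86 on the log2 scale (standard error 0.67, adjusted p of 0.746 from edgeR), and it was -0.41 with UCP1 KI replicate 2 omitted and -0.32 with WT replicate 3 omitted.

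Two-sided exact permutation tests on log2(CPM + 1) gave p-values from 0.2 for *TPI1* to 1 for *ALDOA*, where 0.1 is the smallest p that 3 pigs against 3 allow. No difference of any size could therefore pass 0.05 in these tests. The 95% intervals of edgeR reached from -2.56 at their lowest, for *TPI1*, to 1.21 at their highest, for *PKM*, so these data do not show that the genotypes were alike.

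**Figure D2:**
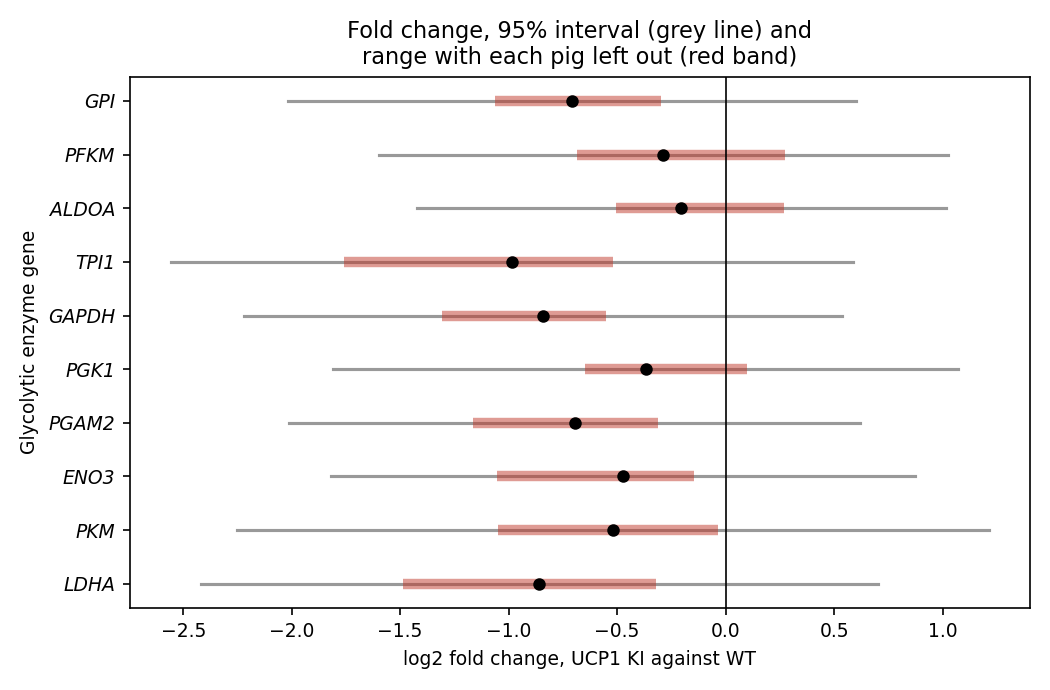
Log2 fold change of UCP1 KI against WT (black point) for the 10 enzymes, with its 95% interval from edgeR (grey line) and the range of the fold change with each pig left out in turn (red band). All points lie below 0, from -0.99 for TPI1 to -0.20 for ALDOA, and all 10 intervals cross 0.

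With UCP1 KI replicate 2 left out, the median log2 fold change of the enzymes was -0.22, and 7 of the 10 were negative. With WT replicate 3 left out it was -0.25, again with 7 negative values. It became -1.06 when UCP1 KI replicate 1 was omitted and -0.92 when WT replicate 1 was omitted. The size of the difference therefore moved by more than 1.5 times with each of these 4 pigs. With library size only the median was -0.37, beside 0.24 over all genes tested, a distance of -0.61, and with TMM factors the distance was -0.59.

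The 10 enzymes varied together from pig to pig. UCP1 KI replicate 2 was the lowest pig for 9 of them, whereas it was the lowest for 17.7% of all genes tested. WT replicate 3 was the highest pig for 9 of them, and for 14.8% of all genes tested. Centered on the mean of each gene, the mean log2 CPM of the enzymes was 0.52, -1.52 and -0.05 in UCP1 KI replicates 1 to 3, and -0.48, 0.49 and 1.04 in WT replicates 1 to 3. The SD of log2(CPM + 1) within genotypes had a median of 0.904 over the enzymes, beside 0.330 over all genes tested and 0.516 over the genes tested that were at least as abundant as the least abundant enzyme. It was largest for *PKM*, above 98.4% of all genes tested, and smallest for *ALDOA*, at 0.657, above 87.4%.

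Genes of fast fibres followed the same order of pigs in part. Of 9 such genes, 5 had an identifier, *TNNT3*, *TNNI2* and *TNNC2* of the fast troponin complex, the fast actin anchor *ACTN3* and the calcium pump *ATP2A1*. Their summed level was 46064, 14334 and 46163 CPM in UCP1 KI replicates 1 to 3 and 28503, 72246 and 74355 CPM in WT replicates 1 to 3. UCP1 KI replicate 2 and WT replicate 1 were the lowest pigs of their genotypes here as well. The groups overlapped, and 0 of the 5 genes were called, as were 0 of the 6 slow fibre genes measured.

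The summed level of the slow fibre genes, among them *MYL2*, *TNNT1* and *TNNI1*, was 12821, 10803 and 7419 CPM in UCP1 KI pigs against 17911, 4338 and 5645 CPM in WT pigs. It was highest in WT replicate 1 and lowest in WT replicates 2 and 3, where the fast genes were highest. Counts on fast fibre genes per count on slow fibre genes were fewest in UCP1 KI replicate 2 (1.33) and WT replicate 1 (1.59) and most in WT replicates 3 (13.2) and 2 (16.7). The heavy chain genes *MYH1*, *MYH2*, *MYH4* and *MYH7* had no identifier under their symbols and were not analysed here.

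**Figure D3:**
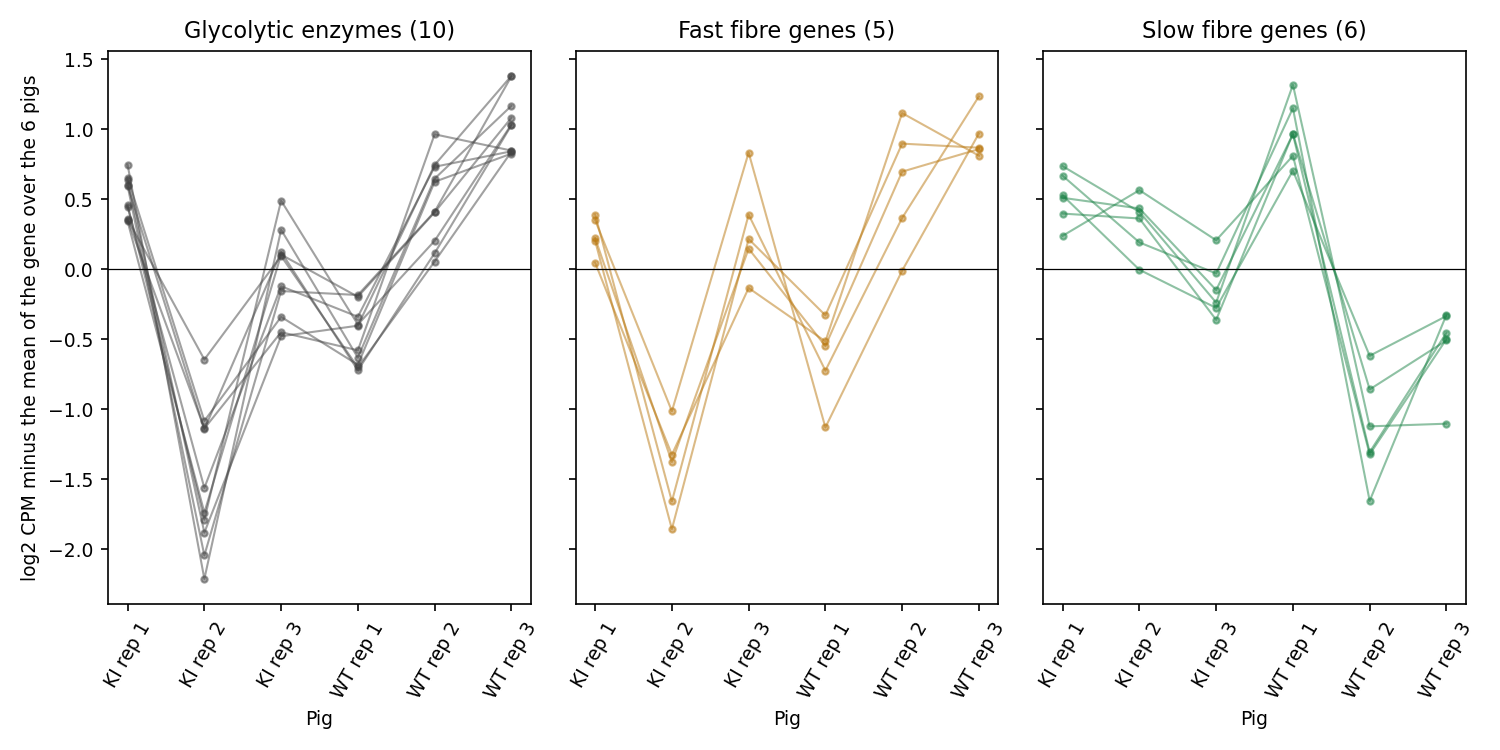
Log2 CPM minus the mean of the gene over the 6 pigs, a line for each gene, for the 10 enzymes, 5 fast fibre genes and 6 slow fibre genes, with pigs in the order of their labels. The enzymes dip in UCP1 KI replicate 2 and WT replicate 1, as the fast fibre genes do, and the slow fibre genes peak in WT replicate 1.

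Counts on the 10 enzymes per count on the 5 fast fibre genes, a ratio within a pig that needs no scaling, were 1.28, 1.44 and 0.849 in UCP1 KI pigs against 1.01, 0.915 and 1.09 in WT pigs. This ratio ranged 1.70-fold over the 6 pigs, whereas the summed CPM of the enzymes ranged 3.90-fold and that of the fast genes 5.19-fold. The groups overlapped in the ratio. Per count on *CKM*, the creatine kinase of muscle, the enzymes had 6.36, 3.60 and 4.18 counts in UCP1 KI pigs against 4.68, 10.2 and 6.74 in WT pigs. Per count on the slow fibre genes they had between 1.60 counts in WT replicate 1 and 15.2 in WT replicate 2. Both of these ratios varied more over the pigs than the ratio to the fast fibre genes, which was 1 of 3 computed. The part of the fibre makeup in the levels of the enzymes was not tested.

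Marker genes of other cells were at low levels beside *ACTA1*, but the fibroblast and endothelial sums were above some of the enzymes in some pigs. The 6 adipocyte markers summed to between 135 and 161 CPM in UCP1 KI pigs and between 99.9 and 315 CPM in WT pigs, with *LEP* at or below 0.511 CPM in every pig. Summed leukocyte markers lay between 13.4 and 48.4 CPM in UCP1 KI pigs, the highest value in replicate 2, and between 12.5 and 27.4 CPM in WT pigs. The 6 fibroblast markers summed to between 235 and 435 CPM in UCP1 KI pigs, the lowest value in replicate 2, and between 742 and 1187 CPM in WT pigs, without overlap, and 4 of the 6 were called lower. The 2 red blood cell markers measured were at 75.8, 11.4 and 73.1 CPM in UCP1 KI pigs and at 104, 107 and 179.5 CPM in WT pigs, again with the lowest sum in UCP1 KI replicate 2, and 0 were called. Endothelial markers summed to between 273 and 508 CPM in UCP1 KI pigs, the highest value in replicate 2, and between 251 and 457 CPM in WT pigs. Schwann cell markers summed to between 15.9 and 36.6 CPM in UCP1 KI pigs and between 12.7 and 35.9 CPM in WT pigs. Of the endothelial and leukocyte markers, *TEK*, an endothelial receptor, was called higher by 1.20 on the log2 scale, without overlap, and *CD3E* of T cells by 1.84, with overlap. The part of these cells in the levels of the enzymes was not tested.

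Shares within the pathway were then compared, since a share of the counts on the 10 enzymes does not depend on how libraries are scaled. *GAPDH* held 33.9%, 34.3% and 29.2% of these counts in UCP1 KI pigs against 36.4%, 46.1% and 34.8% in WT pigs. Each UCP1 KI pig was thus below each WT pig, at the smallest p that the design allows (two-sided exact permutation test, p = 0.1, and 0.5 after Benjamini-Hochberg adjustment over the 10 enzymes). *ALDOA* held 28.7%, 40.8% and 36.0% in UCP1 KI pigs against 28.3%, 20.8% and 29.2% in WT pigs, with an overlap through UCP1 KI replicate 1. *PKM* held 2.55% in UCP1 KI replicate 2 and between 5.50% and 7.60% in the other pigs. The shares of the 9 enzymes other than *GAPDH* overlapped between the genotypes. Since the 10 shares add up to the whole in each pig, a lower share of *GAPDH* raises those of other enzymes.

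The muscle isoforms took most reads of their steps, and the lowest share was 90.3%, that of *LDHA* in UCP1 KI replicate 2. *GAPDHS* is the sperm form of *GAPDH*, and *PKLR* the pyruvate kinase of liver and red blood cells. The lowest share of *PKM* among the pyruvate kinase reads was 99.9%, in UCP1 KI replicate 2. The reads of *GAPDHS* were at most 0.00264% of those of its step. *PGK2*, the sperm form of phosphoglycerate kinase, had no identifier.

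At the steps of phosphofructokinase, lactate dehydrogenase, enolase and phosphoglycerate mutase, the isoforms of other tissues took their largest shares in UCP1 KI replicate 2 and WT replicate 1. In these pigs *PFKM*, *LDHA*, *ENO3* and *PGAM2* were lowest, and a low level of the muscle form by itself raises the share of the others. The shares therefore do not show higher levels of the other isoforms. *PFKL* and *PFKP*, the liver and platelet forms of phosphofructokinase, held 1.97%, 8.64% and 1.93% of the reads of the step in UCP1 KI pigs against 6.01%, 3.03% and 0.780% in WT pigs. *LDHB*, the subunit of heart and slow muscle, together with *LDHC* of the testis held 1.58%, 9.74% and 1.70% of the lactate dehydrogenase reads in UCP1 KI pigs against 4.63%, 0.755% and 0.571% in WT pigs. UCP1 KI replicate 2 had the highest and WT replicate 1 the next highest share in both cases. Counting error was small beside these differences, with no 95% Wilson interval wider than 1.18 percentage points at the lactate dehydrogenase step and 0.909 at the phosphofructokinase step.

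*ENO1* and *ENO2*, the ubiquitous and the neuronal enolase, held 1.995%, 4.14% and 1.60% of enolase reads in UCP1 KI pigs against 3.13%, 2.14% and 1.01% in WT pigs. *PGAM1*, the mutase of brain and most other tissues, held 0.341%, 2.02% and 0.320% of the reads of its step in UCP1 KI pigs against 0.498%, 0.363% and 0.233% in WT pigs. Again UCP1 KI replicate 2 had the highest share and WT replicate 1 the next. The groups overlapped at all 4 of these steps and at those of *GAPDH* and *PKM*, whereas they did not overlap at the aldolase step.

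*LDHB* was at 21.1, 25.7 and 15.5 CPM in UCP1 KI pigs and at 43.3, 9.60 and 11.15 CPM in WT pigs, with a fitted log2 difference of -0.04 (standard error 0.57). *PFKL* was at 18.6, 26.0 and 13.6 CPM in UCP1 KI pigs and at 27.0, 16.4 and 8.11 CPM in WT pigs, with a fitted log2 difference of 0.17 (standard error 0.45). *LDHB* was called higher without WT replicate 1, at 0.999 on the log2 scale. *LDHB* and *PFKL* were highest in UCP1 KI replicate 2 and WT replicate 1, the pigs with the lowest levels of *PFKM* and *LDHA*. Other isoforms did not share this order. *ENO1* was highest in WT replicate 2 (170 CPM) and UCP1 KI replicate 1 (161 CPM), and *PFKP* in WT replicate 2 (11.7 CPM). *PGAM1* was at 20.6 CPM in UCP1 KI replicate 2 but at 11.7 CPM in WT replicate 1. *PFKP*, *PGAM1*, *ENO1*, *ENO2* and *LDHC* differed by -0.11, 0.04, -0.13, -0.36 and -0.02 on the log2 scale. Their groups overlapped, and none was called. *LDHC* was highest in WT replicate 3 (4.004 CPM) and UCP1 KI replicate 1 (3.56 CPM), as *LDHA* was, and had no count in WT replicate 1.

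**Figure D4:**
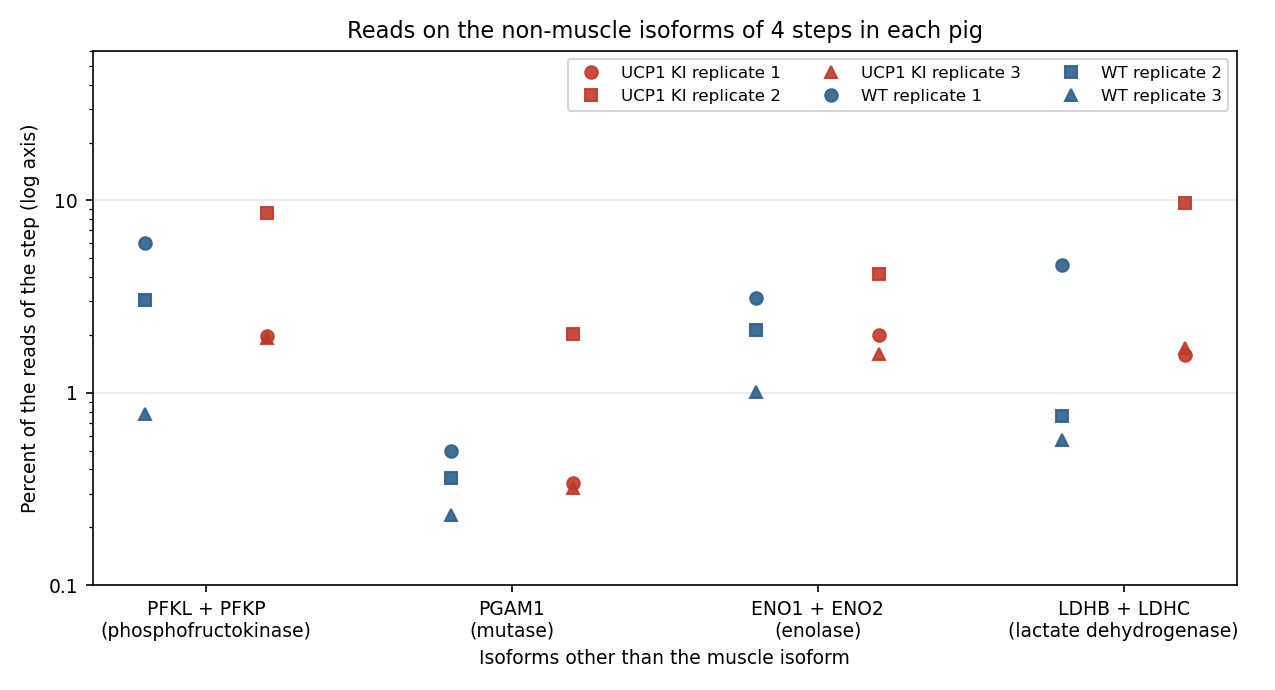
Percent of the reads of 4 glycolytic steps (log axis) that fell on isoforms other than the muscle form, in each pig, with blue for WT and red for UCP1 KI. UCP1 KI replicate 2 (red square) has the highest share at all 4 steps, and the genotypes overlap at each.

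*ALDOC* (ENSSSCG00000017759), the aldolase of brain, was at 10.1, 13.1 and 12.7 CPM in UCP1 KI pigs and at 0.248, 0.657 and 11.3 CPM in WT pigs. WT replicate 3 lay among the UCP1 KI pigs, and the other WT pigs were far lower, with 9 and 18 counts against 313 to 480 in the UCP1 KI pigs. The fitted log2 difference of 1.56 (standard error 1.14, with an unadjusted p of 0.211 from edgeR) did not pass the limits. It passed them without WT replicate 3, at 4.74 with an unadjusted p of 7.0e-05 and an adjusted p of 0.186 from edgeR, and in the fit with a replicate block, at 3.27. Of the reads of *ALDOA* and *ALDOC* together, *ALDOC* held 0.0598%, 0.155% and 0.0901% in UCP1 KI pigs against 0.00306%, 0.00479% and 0.0477% in WT pigs. These shares did not overlap (p = 0.1 in an exact two-sided permutation test, and 0.7 after adjustment over 7 steps), and WT replicate 3 was close to UCP1 KI replicate 1.

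Beside the enzymes, 40 genes of glucose entry, flux control, the fates of pyruvate and NADH, the reverse steps and other isoforms were listed, of which 29 could be tested. Called genes numbered 3 of these 29, against 8.19% of all genes tested, a share near that background. All 3 were higher in UCP1 KI pigs, which is 1 of the 5 tested for glucose entry and phosphorylation, 1 of 6 regulators of flux, 1 of 6 for the fates of pyruvate, lactate and NADH, 0 of 3 for the reverse steps and 0 of 9 for the isoforms. Their adjusted p-values from edgeR were between 0.583 and 0.589.

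*HK2* (ENSSSCG00000008261), the insulin-regulated hexokinase of muscle that phosphorylates glucose on entry, was at 55.9, 59.9 and 12.3 CPM in UCP1 KI pigs and at 15.9, 6.50 and 13.2 CPM in WT pigs. UCP1 KI replicates 1 and 2 were above every WT pig, and UCP1 KI replicate 3 was within the WT range. The log2 fold change was 1.85 (standard error 0.60, unadjusted p of 0.0162 and adjusted p of 0.583 from edgeR), and the call was lost without UCP1 KI replicate 2 (1.53) or WT replicate 2 (1.55). *HK2* did not share the low level of the 10 enzymes in UCP1 KI replicate 2. *HK1*, the hexokinase of most tissues, had a log2 fold change of 0.17, and *SLC2A4*, the insulin-regulated glucose transporter, 0.12.

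*PFKFB3* (ENSSSCG00000011133), which makes fructose 2,6-bisphosphate, an activator of phosphofructokinase, was at 199, 19.7 and 589 CPM in UCP1 KI pigs and at 16.5, 45.6 and 60.1 CPM in WT pigs. UCP1 KI replicates 1 and 3 were above every WT pig, and UCP1 KI replicate 2 was among the lowest. UCP1 KI exceeded WT by 2.72 on the log2 scale (standard error 1.04, unadjusted p of 0.0322 from edgeR). It was no longer called without UCP1 KI replicate 3 (1.45), WT replicate 1 (2.33), WT replicate 2 (2.81) or WT replicate 3 (3.12), nor in the fit with a replicate block (2.17). The other genes of this family, *PFKFB1*, *PFKFB2* and *PFKFB4*, had log2 fold changes of -0.16, -0.13 and -0.44, and none was called.

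*GPD1L* (ENSSSCG00000021977), a relative of the glycerol-3-phosphate dehydrogenase *GPD1*, was at 43.4, 58.8 and 57.2 CPM in UCP1 KI pigs and at 31.0, 24.8 and 39.1 CPM in WT pigs, and the groups did not overlap. It rose by 0.75 on the log2 scale (standard error 0.26, unadjusted p of 0.0210 and adjusted p of 0.583 from edgeR). The call was lost without UCP1 KI replicate 2 (0.66), UCP1 KI replicate 3 (0.69) or WT replicate 2 (0.60). *GPD1* itself, which carries electrons of glycolytic NADH toward mitochondria, had a log2 fold change of 0.03 (standard error 0.52).

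*SLC16A3*, the lactate exporter of fast fibres, was at 109.5, 11.6 and 44.7 CPM in UCP1 KI pigs and at 35.6, 95.4 and 107 CPM in WT pigs. It was lowest in UCP1 KI replicate 2 and next in WT replicate 1, as most of the enzymes were. *FBP2*, the muscle fructose-bisphosphatase that opposes phosphofructokinase, was at 352, 48.8 and 207 CPM in UCP1 KI pigs and at 301, 380.4 and 554 CPM in WT pigs. *BPGM*, which makes 2,3-bisphosphoglycerate, was at 27.7, 4.96 and 18.4 CPM in UCP1 KI pigs and at 10.8, 17.6 and 41.1 CPM in WT pigs. Their log2 fold changes of -0.52, -1.02 and -0.44 were not called, although *FBP2* was called lower without UCP1 KI replicate 1 (-1.68), and UCP1 KI replicate 2 was the lowest pig for all 3. These 3 genes were picked after their values were seen, and not all listed genes shared the dip. Among UCP1 KI pigs, *MPC2* (144 CPM) and *GPD2* (58.5 CPM), for example, were highest in replicate 2.

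**Figure D5:**
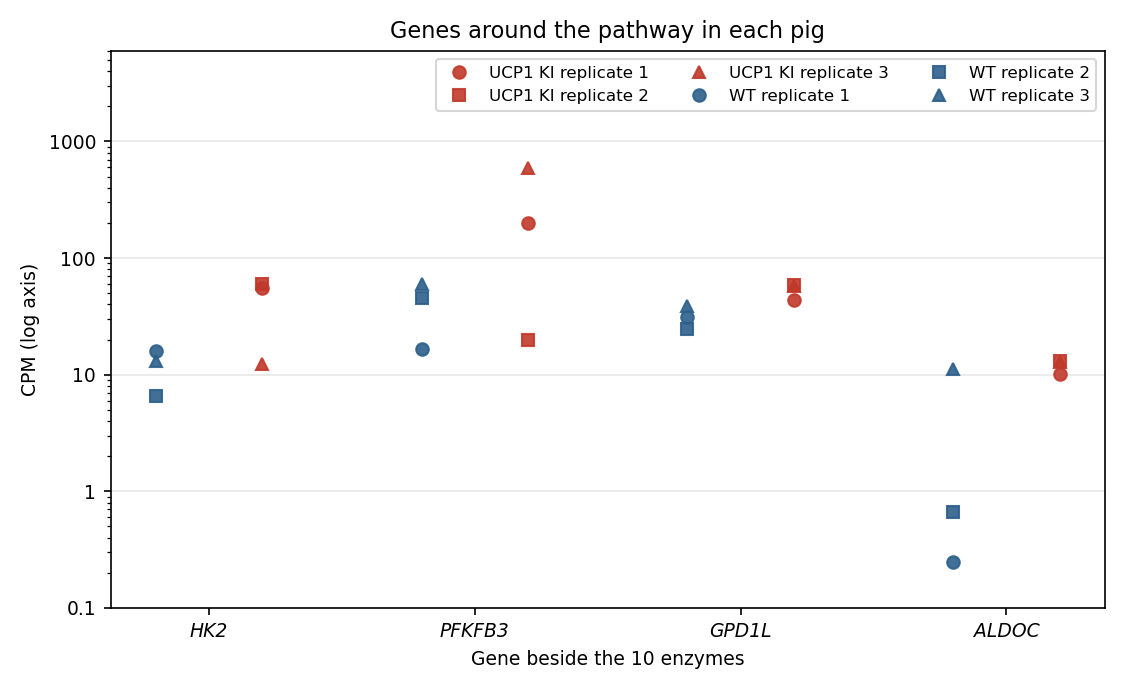
CPM (log axis) of HK2, PFKFB3, GPD1L and ALDOC in each pig, with blue for WT and red for UCP1 KI. UCP1 KI pigs were above all WT pigs for GPD1L, whereas the groups overlap for HK2, PFKFB3 and ALDOC.

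Genes whose pattern was closest to the mean of the 10 enzymes were then sought. Genes of the pathway and cell marker lists, the fast fibre genes among them, were left out. The search covered 5628 other genes with a symbol, a count in every pig and a mean of at least 10 CPM. Likeness was the root mean square difference of centered log2 CPM over the 6 pigs, with a median of 0.898 over these genes and a range of 0.148 for *PGAM2* to 0.427 for *ALDOA* among the enzymes. The 5 nearest genes outside the lists began with *GAMT* (0.109), an enzyme of creatine synthesis, and *TPM1* (0.166), a tropomyosin. The others were *CARNS1* (0.183), which makes carnosine, *DUSP29* (0.226), a muscle phosphatase, and *MYL1* (0.253), a myosin light chain of fast fibres. *GAMT* was at 114, 30.3 and 84.0 CPM in UCP1 KI pigs and at 69.7, 141 and 188 CPM in WT pigs. None of the 5 was called, with log2 fold changes from -0.92 for *CARNS1* to -0.23 for *MYL1*.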

How the data were processed

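RNA of the longissimus dorsi of 3 UCP1 KI and 3 WT pigs was sequenced as paired ends. The submitters' processing notes and the paper name FastQC 0.11.2, Trimmomatic 0.36, HISAT2 2.0, StringTie 1.3.3b and DESeq2 1.12.4. The counting program, annotation release and strand setting are not given in the sources used here. The authors deposited raw read counts per gene, not normalized, with totals of 30220951 to 35066624, so counting error is small for the enzymes. A limit of 3 counts was at most 0.110 CPM.

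Counts were fitted in R 4.3.3 with edgeR 4.0.16 (filterByExpr, TMM factors, quasi-likelihood F test, two-sided, genotype as the only term). Called genes had p under 0.05 without adjustment and a log2 fold change beyond 0.5 in either direction. The study gives limits of the same size, with DESeq2, and its methods do not say whether p was adjusted. Benjamini-Hochberg adjusted p-values over 13402 genes are given beside the calls. Standard errors are the fold change divided by the square root of F. Exact permutation tests enumerated 20 assignments of pigs. Symbols came from a table that named 14864 identifiers. Alternatives were DESeq2 1.42.0, other factors and filters, a replicate block, no fold limit and each pig left out. The fit was tested on simulated data. Members, lists and tests were chosen with earlier results of these data known. Named genes were the 10 enzymes, called genes and tested isoforms of the pathway lists, and the 5 nearest genes outside the lists. *SLC16A3*, *FBP2*, *BPGM*, *MPC2*, *GPD2*, *HK1*, *SLC2A4*, *GPD1* and the other *PFKFB* genes were added after their values were seen. Some genes of the lists are not reported here.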

Additional observations from a re-analysis of the deposited data

How the results depend on the processing

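Of the 10 enzymes, 0 were called with DESeq2, median-of-ratios factors, library size only, either filter, the replicate block or no fold limit, and 9 of them under no alternative. The count with each pig left out was between 0 and 1, *TPI1* being called without UCP1 KI replicate 1. The median log2 fold change of the enzymes reached from -1.06 to -0.22 when 1 pig was omitted. Log2 fold changes that turned positive were those of *ALDOA* (0.050 under library size scaling, 0.03 without UCP1 KI replicate 2, 0.27 with WT replicate 3 omitted), *PFKM* (0.07 and 0.27 without these pigs) and *PGK1* (0.07 and 0.10), whereas the lowest values with 1 pig omitted were -0.50, -0.69 and -0.65 in the same order, so the sign of these 3 enzymes rests on single pigs. Over all genes, 1097 were called, from 678 with UCP1 KI replicate 2 omitted to 1541 with WT replicate 3 omitted. The count with an adjusted p under 0.05 was 0, and 127 with DESeq2, 1 with library size only and 1 with all genes with any count; the cause was not tested. With library size only, 929 genes were called higher and 195 lower, against 515 and 582. Called genes beside the enzymes numbered 3, and between 0 and 4 with each pig left out. Same-numbered pigs did not deviate together throughout (correlations across 13402 genes of 0.00383, 0.0943 and 0.283), and not every pig correlated best with its own number. With the replicate block the median of the enzymes was -0.82, 0 of them were called and 1114 genes were called in all; *PFKFB3* was not called with it, at 2.17, and *ALDOC* was, at 3.27. Isoform shares per coding length were not run, since no length table was used here. The difference between genotypes in the share of the muscle isoform changed sign without UCP1 KI replicate 2 for *PFKM*, *PGAM2*, *ENO3*, *PKM* and *LDHA*, for *PFKM* and *ENO3* also with WT replicate 3 omitted (0.341 and 0.0519 percentage points), and for *GAPDH* with WT replicate 1 omitted. At the *GAPDH* and *PKM* steps, with few counts on other isoforms, the widest counting interval was close to or above the spread between pigs. The share of *ALDOC*, with no other isoform counted beside *ALDOA*, was added after the data were seen.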

Other observations

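*GAPDH* and *PGK1* are often used as reference genes for relative expression, and their ranges over these pigs were 4.29-fold and 7.07-fold. A list of 9 other customary reference genes was added after the values of the enzymes were seen, and 6 had an identifier. Their ranges over the 6 pigs lay between 1.28-fold for *HPRT1* and 2.85-fold for *SDHA*, with a median of 2.05-fold, whereas those of the 10 enzymes lay between 2.91-fold and 10.7-fold with a median of 6.18-fold. *RPL4* ranged 1.40-fold, *ACTB* 2.04-fold, *YWHAZ* 2.06-fold and *RPLP0* 2.21-fold. All ranges use CPM scaled with TMM factors.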
